A study of Mus musculus with 18 samples.

Results

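The genes of oxidative phosphorylation were followed in epithelium from mouse molar tooth germs, in wild-type mice and in mice labelled as lacking both Hmgn1 and Hmgn2. They were chosen by symbol, from both genomes of the cell. The nuclear members are the subunits of respiratory complexes I (Nduf), II (Sdh), III (Uqcr) and IV (Cox4 to Cox8) and of ATP synthase (Atp5), with the Ndufaf assembly factors of complex I. The mitochondrial members are the symbols with the mt- prefix. Pseudogenes were left out. Over all stages 119 of 33665 listed symbols were members. The table of embryonic day 17 (E17) listed 92 nuclear and 26 mitochondrial members among 32532 symbols. The table of postnatal day 0 (P0) listed 14 nuclear members among 4841 symbols, since the table used here covers chromosomes 1 and 10 and a part of chromosome 11. The table of postnatal day 5 (P5) listed 91 nuclear members among 19450 symbols, and its mitochondrial genes were not analysed here.

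RNA was measured in 18 libraries, 3 of each genotype at each stage. The groups are WT and DKO, a double knockout labelled Hmgn1-/-; Hmgn2-/-, and the labels give no treatment, strain or sex and do not say whether animals were pooled. Hmgn1 and Hmgn2 encode nucleosome-binding proteins that loosen compacted chromatin. Tooth germs were treated with dispase at 1 U per ml to part epithelium from mesenchyme, and total RNA was depleted of ribosomal RNA before library construction. Values are RPKM, reads normalized to transcript length and to the reads of the library, summed over the transcripts of a symbol. Since the labels do not name separate animals, p-values measure no more than how these samples spread, and that spread may be technical.

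Oxidative phosphorylation is carried out by 4 respiratory complexes and ATP synthase in the inner mitochondrial membrane. Electrons from NADH enter at complex I, those from succinate enter at complex II, and both pass through complex III to oxygen at complex IV. The proton gradient built on the way drives ATP synthase. The mitochondrial genome encodes core subunits of complexes I, III, IV and ATP synthase, its own ribosomal RNAs and its transfer RNAs, while every subunit of complex II and all other subunits are encoded in the nucleus and imported. Enamel-forming epithelium is a secretory tissue that also transports calcium.

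The mitochondrial genome is compact, and neighbouring genes share letters. The gene mt-Atp8 (ATP synthase subunit 8) and the gene mt-Atp6 (subunit a) overlap by 43 bases of the plus strand at chrM:7927-7969 (mm10). This stretch makes up 21.1% of mt-Atp8 and 6.31% of mt-Atp6, so reads within it cannot be assigned to 1 of the 2 genes. It is shown because it bears on each value of mt-Atp8 given here. Capitals mark the start codon of mt-Atp6 at its 5′ end and the stop codon of mt-Atp8 at its 3′ end, in the transcripts of GENCODE M21.
mt-Atp8 and mt-Atp6 overlap: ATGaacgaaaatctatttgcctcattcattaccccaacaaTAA
Shorter overlaps join mt-Nd4l and mt-Nd4, by 7 bases, and mt-Nd5 and mt-Nd6, by 14 bases on opposite strands. Whether reads were counted by strand is not given in the sources used here.

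A nuclear insertion of mitochondrial DNA on chromosome 1 carries 7 annotated pseudogenes that are near-identical to mitochondrial mRNAs, at chr1:24611535-24616197 (mm10) on the minus strand. The whole of Gm28661 stands letter for letter within mt-Co2, Gm10925 within mt-Atp6, Gm28437 within mt-Co3, Gm10222 within mt-Nd4l and Gm28439 within mt-Nd4. Gm28438 shares 99% of its 31-letter words with mt-Nd3, and Gm29216 shares 97.2% of its words with mt-Co1. At E17 the deposited value of Gm28437 differed from that of mt-Co3 by at most 0.06% in any library, that of Gm28661 from mt-Co2 by at most 0.29% and that of Gm10925 from mt-Atp6 by at most 0.76%. Reads of these 3 genes and of their copies were therefore not told apart, and the values of the mitochondrial genes named in this paragraph are uncertain to that extent. Gm10222 stood at 0.703 to 0.921 times mt-Nd4l and Gm28438 at 1.54 to 1.74 times mt-Nd3. How far these 2 genes share reads with their copies cannot be told from the values. Gm28439 stood at 0.00416 to 0.00667 times mt-Nd4 and Gm29216 at 0.00205 to 0.00398 times mt-Co1. The copies lie outside the rule for members and are used below only at P0.

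The promoters of 3 nuclear genes of complex I are shown because the effect of the double knockout on these genes differed between E17 and P5. Ndufaf4 and Ndufaf3 encode assembly factors of complex I, and Ndufb4 encodes an accessory subunit of its membrane arm. Each window runs from 250 bases before to 50 bases after the gene's start, in RefSeq's GRCm38.p6, read 5′ to 3′ along the gene. Capitals mark the letters GCATGCGC, part of the motif of the transcription factor NRF1, on either strand.
Ndufaf4, chr4:24897833-24898132, plus strand: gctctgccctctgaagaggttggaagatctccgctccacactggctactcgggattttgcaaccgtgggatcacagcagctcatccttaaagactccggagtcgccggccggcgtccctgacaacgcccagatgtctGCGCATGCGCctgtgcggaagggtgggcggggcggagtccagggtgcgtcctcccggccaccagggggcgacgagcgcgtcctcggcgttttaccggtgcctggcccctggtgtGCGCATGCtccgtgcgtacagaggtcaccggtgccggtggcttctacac
Ndufaf3, chr9:108567387-108567686, minus strand: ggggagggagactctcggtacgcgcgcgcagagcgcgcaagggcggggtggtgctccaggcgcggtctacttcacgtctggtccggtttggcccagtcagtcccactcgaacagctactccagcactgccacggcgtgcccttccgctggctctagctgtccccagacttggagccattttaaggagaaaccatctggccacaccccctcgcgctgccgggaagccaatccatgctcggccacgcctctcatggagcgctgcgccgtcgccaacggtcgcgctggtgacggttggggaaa
Ndufb4, chr16:37654319-37654618, minus strand: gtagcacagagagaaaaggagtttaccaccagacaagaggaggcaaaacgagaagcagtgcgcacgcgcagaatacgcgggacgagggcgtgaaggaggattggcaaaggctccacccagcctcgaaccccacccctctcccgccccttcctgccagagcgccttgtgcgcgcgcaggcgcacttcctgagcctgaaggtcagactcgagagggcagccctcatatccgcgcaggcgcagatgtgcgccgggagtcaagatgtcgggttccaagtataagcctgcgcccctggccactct
The Ndufaf4 window holds 3 matches, of which the first pair overlap on opposite strands, while the windows of Ndufaf3 and Ndufb4 hold none. Promoter windows were found for 77 of the 93 nuclear member symbols, 82 windows in all. GCATGCGC was found in 12 of them (14.6%) and in 2.71% of all 32851 windows of the table. AAGATGGC, part of the YY1 motif, was found in 11 (13.4%) against 2.75%, and CCGGAAGT, part of the ETS motif bound by GABPA, was found in 5 (6.1%) against 3.89%. Both strands were searched in each case. NRF1, YY1 and GABPA are known regulators of nuclear genes for mitochondrial proteins, and these shares describe letters, not binding.

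The libraries differed in ways that bear on every count below. Over all genes tested, the median log2 fold change, DKO against WT on the log2(RPKM + 1) scale, was 0.25 at E17 and -0.25 at P5, and at P0 it was -0.05. With the upper quartile of all libraries set equal it was -0.00 at E17, -0.06 at P5 and -0.04 at P0. "Rose" and "fell" are used below only of genes with a Benjamini-Hochberg adjusted p under 0.05 in limma, in the same direction, as deposited and after this scaling. Of all calls at E17, 94.5% were higher as deposited and 45.2% after scaling, and at P5 the shares were 11.2% and 38.6%. At E17 a nuclear ribosomal RNA annotated on chromosome 17, CT010467.1, stood at 40255, 40655 and 37860 RPKM in WT and at 29974, 5283 and 8986 in DKO replicates 1, 2 and 3. Other abundant non-coding RNAs of the cell followed the same order, such as Rn7sk with 535, 463 and 434 RPKM against 409, 66.8 and 103. At P5 the enamel matrix gene Amelx stood at 103854, 108356 and 90465 RPKM in WT and at 197948, 190145 and 162338 in DKO. The part of these RNAs in the shifts was not tested.

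The labelled genotype and tissue were checked first. Hmgn2 stood at 354, 344 and 320.0 RPKM in WT at E17 and at 0.84, 0.95 and 0.97 in DKO, and it fell by 4.26 on the log2 scale at P5. Hmgn1 stood at 133, 129 and 123 RPKM in WT and at 86.2, 92.9 and 92.7 in DKO at E17, and at 187, 190 and 179 against 72.6, 69.8 and 72.2 at P5. It fell by 0.50 and by 1.36 on the log2 scale, so much of its RNA remained in the libraries labelled DKO. Which part of each gene was removed is not labelled, so these values do not check the loss of Hmgn1. All 8 markers of dental and oral epithelium passed the filter at E17 and at P5, and their sum was 2092 to 2475 RPKM in WT and 2393 to 2510 in DKO at E17. There 4 of the 8 rose and 1 fell, with a median of 0.55 as deposited and 0.27 scaled, and at P5 1 rose and 1 fell. Summed markers of mesenchyme were 4533 to 4832 RPKM in WT and 2560 to 2880 in DKO at E17. Markers of red cells summed to 5771 to 7230 against 10412 to 21298. Of the 10 tested mesenchyme markers 5 fell and 1 rose, and of 7 of red cells 5 rose. Among all genes 6.61% rose and 3.07% fell at E17. At P5 both lists were lower in DKO. Mesenchyme markers summed to 2541 to 2905 against 1105 to 1495 RPKM, and 8 of 11 tested fell. Red cell markers summed to 1349 to 1481 against 517 to 1186 RPKM, and 5 of 5 tested fell. Among all genes 7.35% rose and 30.8% fell at P5. In bulk samples, fewer cells of a type and less RNA per cell cannot be told apart, and the part of these cells in the results was not tested.

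At E17 the mitochondrial mRNAs were among the most abundant RNAs of the tissue, and they did not pass the test between genotypes as deposited. The 13 mRNAs together made up 9.27%, 8.91% and 9.20% of all summed RPKM in the WT libraries and 7.73%, 8.46% and 8.85% in the DKO libraries. The DKO shares all lay below the WT shares. Per transcript length, mt-Co1, the catalytic subunit of complex IV, was the highest of the 13 in every library and mt-Cytb, the mitochondrially encoded subunit of complex III, the second.

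mt-Co1 stood at 9334, 8358 and 8475 RPKM in WT and at 8163, 9500 and 9871 in DKO. DKO replicate 1 was the lowest of the 6 libraries and DKO replicate 3 the highest, so the groups overlapped, and the log2 fold change was 0.07 ± 0.14 (SE, limma adjusted p = 0.666). mt-Cytb stood at 5608, 5015 and 5132 against 4652, 5483 and 5718 RPKM, in the same order of DKO libraries. mt-Atp6, mt-Co2 and mt-Co3 took the ranks from 3 to 5 in an order that varied between libraries. mt-Co2 and mt-Co3 encode the other core subunits of complex IV. mt-Atp6 stood at 4754, 4029 and 4232 against 4192, 4696 and 5000 RPKM, mt-Co2 at 4730, 4158 and 4154 against 3870, 4685 and 4787, and mt-Co3 at 4700, 3989 and 4112 against 4247, 4666 and 4981.

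The 7 mitochondrial subunits of complex I form the membrane arm that pumps protons. Their order per length was the same in all 6 libraries, with mt-Nd1 first, then mt-Nd4, mt-Nd2, mt-Nd5, mt-Nd6, mt-Nd3 and mt-Nd4l. mt-Nd1 stood at 4231, 3892 and 3891 RPKM in WT and at 3809, 4205 and 4373 in DKO, and mt-Nd4l at 563, 533 and 500 against 496, 530 and 578. Both pairs of groups overlapped. mt-Atp8, which stood between mt-Nd2 and mt-Nd5, had 1450, 1340 and 1428 against 1374, 1631 and 1993 RPKM, and its log2 fold change of 0.23 ± 0.14 (limma adjusted p = 0.171) was the highest of the 13 mRNAs.

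As deposited, 0 of the 13 mitochondrial mRNAs passed the test in limma, 0 also at an unadjusted p under 0.05, and their median log2 fold change was 0.04 where that of all genes was 0.25. After upper-quartile scaling the median was -0.25, and 3 mRNAs were lower at an adjusted p under 0.05, all of complex I, where 8.03% of all genes were. These were mt-Nd4 at -0.30 (limma adjusted p = 0.0445), mt-Nd5 at -0.29 (0.0273) and mt-Nd4l at -0.28 (0.0232). No mitochondrial mRNA rose or fell, since none passed in both scalings.

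The 2 mitochondrial ribosomal RNAs fell, against 3.07% of all genes that did at E17. mt-Rnr1, the RNA of the small mitochondrial ribosomal subunit (chrM:70-1024, plus strand, mm10), stood at 1567, 1548 and 1453 RPKM in WT and at 1163, 871 and 1032 in DKO. Every DKO library lay below every WT library, with DKO replicate 2 the lowest. The log2 fold change was -0.58 ± 0.12 (limma adjusted p = 0.00417) as deposited and -0.87 (0.00579) scaled. mt-Rnr2, the RNA of the large subunit (chrM:1094-2675, plus strand), stood at 2653, 2487 and 2375 RPKM in WT and at 2154, 1781 and 2101 in DKO. Its groups did not overlap either, and the log2 fold change was -0.32 ± 0.11 (limma adjusted p = 0.0359) as deposited and -0.61 (0.0125) scaled.

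These ribosomal RNA values are of what depletion left behind. DKO replicate 2 was the lowest library and DKO replicate 1 the highest of the DKO libraries for mt-Rnr1, for mt-Rnr2, for CT010467.1 and for Rn7sk, and the part of the depletion in the result was not tested. The call of mt-Rnr1 held in both scalings when any single library was left out. That of mt-Rnr2 as deposited was lost without 5 of the 6 libraries taken singly, with adjusted p from 0.0572 without WT replicate 1 to 0.18 without DKO replicate 2, and was kept without DKO replicate 1. It was lost with the replicate block too (limma adjusted p = 0.122), and the scaled call was lost without WT replicate 3 (0.0505) or DKO replicate 3 (0.0566). With no filter on low values neither gene passed in both scalings, with scaled adjusted p of 0.0579 for mt-Rnr1 and 0.0977 for mt-Rnr2.

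Of 22 mitochondrial tRNA genes, 11 were listed at E17, with 42 of 66 values at 0 and a highest value of 3.48 RPKM. Only mt-Ts1 (serine) passed the filter, at a log2 fold change of 0.68 (limma adjusted p = 0.0948).

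**Figure D1:**
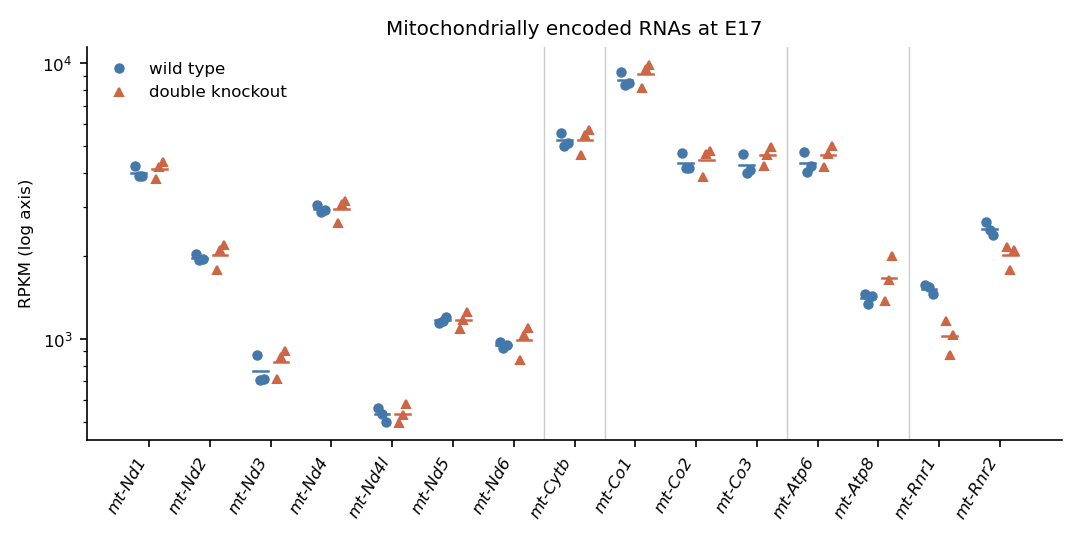
RPKM (log axis) of the 13 mitochondrial mRNAs and the 2 mitochondrial ribosomal RNAs at E17, with circles for the 3 WT libraries and triangles for the 3 DKO libraries of each gene. The mRNA groups overlap, while mt-Rnr1 and mt-Rnr2 are lower in all 3 DKO libraries than in any WT library.

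At E17 the nuclear members stood slightly above WT as deposited and at the level of WT after scaling. Of 90 tested, 40 were higher and 0 lower as deposited, against 56.3% and 3.3% of all 13728 genes. At an unadjusted p under 0.05, limma placed 65 higher and 0 lower. The median log2 fold change of the members was 0.28 beside 0.25 for all genes. After upper-quartile scaling the members' median was -0.01 and 1 of 90 was higher, where 6.61% of all genes were. In both scalings 1 of 90 rose, where 6.61% of all genes rose.

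By complex, as deposited, 17 of 36 subunits of complex I were higher (median 0.28), as were 0 of 4 of complex II (0.22), 1 of 8 of complex III (0.27), 6 of 17 of complex IV (0.27) and 10 of 17 of ATP synthase (0.29). Of the 8 complex I assembly factors 6 were higher, with a median of 0.30. Among all genes 56.3% were higher, with a median of 0.25. After scaling the medians of all 6 groups lay between -0.07, in complex II, and 0.03, in the assembly factors. The lowest p among the assembly factors belonged to Ndufaf2, with 20.3, 18.9 and 19.1 RPKM in WT and 25.8, 25.4 and 27.2 in DKO. Its groups did not overlap and its log2 fold change was 0.41 as deposited (limma adjusted p = 0.00186) and 0.13 scaled (0.144). In ATP synthase, Atp5g2, a gene for the c subunit of the rotor, stood at 146, 126 and 135 against 164, 189 and 185 RPKM, at 0.40 as deposited (limma adjusted p = 0.0052) and 0.11 scaled (0.25).

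The count of 40 depended on the libraries. It was 87 without DKO replicate 1 and 76 without WT replicate 1, and between 8 and 16 without any other single library. DKO replicate 1 had the lowest sum of nuclear subunits among the DKO libraries and WT replicate 1 the highest among the WT libraries. The 84 nuclear subunits summed to 15282, 12470 and 12703 RPKM in WT and to 14130, 17167 and 17694 in DKO, so the groups overlapped.

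The ratio of mitochondrial mRNA to nuclear subunit RNA is formed within a library, so the scaling between libraries does not enter it, and it was lower in DKO. The summed RPKM of the 13 mitochondrial mRNAs over that of the 84 nuclear subunits was 2.84, 3.12 and 3.12 in WT (3.03 ± 0.16, SD, n = 3) and 2.68, 2.54 and 2.59 in DKO (2.60 ± 0.07, SD, n = 3). The DKO libraries all lay below the WT libraries. The mean of DKO over that of WT was 0.86, and it lay between 0.834 and 0.873 when single libraries were left out. WT replicate 1 was the WT library nearest to DKO.

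The lower ratio was seen in each complex that both genomes encode. For complex I the mean level of the mitochondrial subunits was 16.5, 18.6 and 18.5 times that of the nuclear subunits in WT and 15.5, 14.6 and 14.8 times in DKO. For complex III it was 27.1, 30.6 and 29.7 against 24.7, 23.8 and 24.0 times. For complex IV it was 26.1, 28.4 and 28.3 against 25.4, 23.9 and 23.9 times, and for ATP synthase 11.6, 12.3 and 12.7 against 10.9, 10.3 and 11.2 times. In all 4 complexes every DKO library lay below every WT library. These ratios are descriptions of the 6 libraries with no test, and the complexes share libraries. The ratio of mitochondrial ribosomal RNA to mitochondrial mRNA was 0.0971, 0.104 and 0.0965 in WT and 0.0877, 0.0608 and 0.0683 in DKO.

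**Figure D2:**
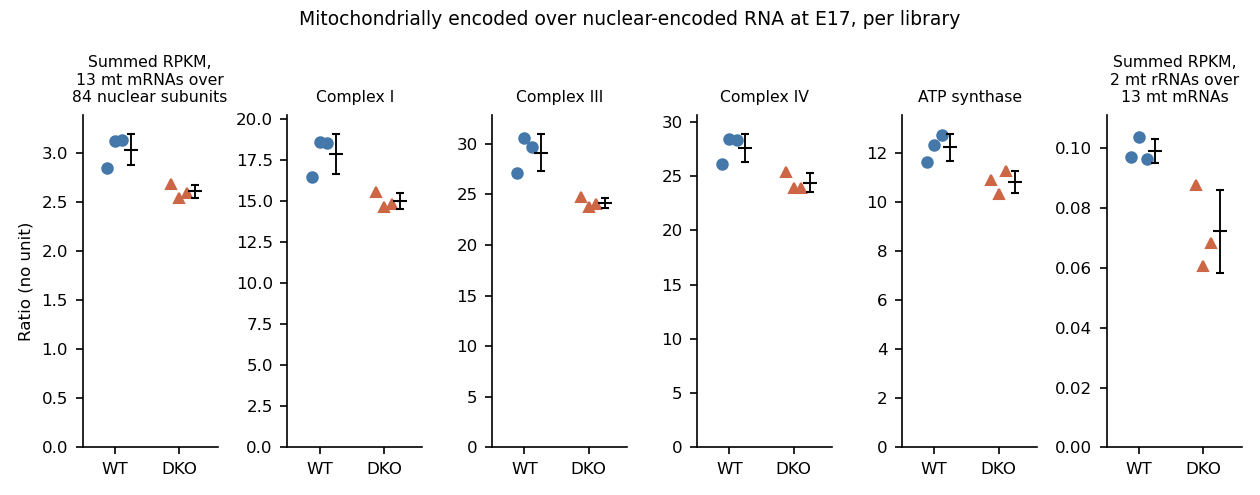
Ratio of mitochondrially encoded to nuclear-encoded RNA in each E17 library, as summed mRNA over summed nuclear subunits and as mean level per complex, with points for libraries and bars for the mean and SD. The last panel shows ribosomal RNA over mRNA. In each panel the 3 DKO libraries lie below the 3 WT libraries, for the sums at 2.54 to 2.68 against 2.84 to 3.12.

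Cox4i2 was the nuclear member that rose at E17, and it fell at P5. Complex IV subunit 4 exists as a ubiquitous isoform, Cox4i1, and as Cox4i2, which is best known from lung and from oxygen-responsive vascular cells. At E17 Cox4i2 (chr2:152754173-152765037, plus strand, mm10) stood at 7.44, 7.33 and 6.25 RPKM in WT (7.01 ± 0.66, SD, n = 3) and at 13.5, 16.8 and 14.5 in DKO (14.9 ± 1.7). Every DKO library was above every WT library, and the log2 fold change was 0.99 ± 0.09 as deposited (limma adjusted p = 0.000318) and 0.73 scaled (0.0014). At P5 it stood at 36.0, 35.1 and 34.4 RPKM in WT and at 17.8, 16.8 and 15.9 in DKO, with DKO now below WT. There the log2 fold change was -1.02 ± 0.06 (limma adjusted p = 2.81e-06) and -0.80 scaled (1.86e-05).

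Between WT libraries Cox4i2 was higher at P5 than at E17, a step set across tables that were normalized separately. The change of the genotype effect from E17 to P5 was -2.01 on the log2 scale as deposited (adjusted p = 5.1e-09 by the Satterthwaite test of the 2 limma effects) and -1.53 scaled (6.69e-08). Both calls and this difference held in the alternatives tried, except the added demand that the log2 fold change be 1 or more in size. The E17 call missed it as deposited and scaled, and the P5 call missed it scaled. Cox4i1 stood at 591 ± 68 RPKM in WT and 708 ± 83 in DKO at E17 (SD, n = 3). It stood at 524 ± 20 and 501 ± 17 at P5, and passed the test at neither stage as deposited. Scaled, its log2 fold change was -0.03 at E17 (limma adjusted p = 0.843) and 0.16 at P5 (0.0357). For markers of pericytes and smooth muscle the sum was 82.2 to 87.8 RPKM in WT and 95.9 to 104 in DKO at E17, where 0 of 6 tested rose or fell in limma, with a median log2 fold change of 0.20 as deposited and -0.05 scaled. At P5 it was 61.3 to 69.1 against 44.7 to 53.9, where 3 of 6 fell. Endothelial markers summed to 61.6 to 74.1 against 66.1 to 67.7 RPKM at E17. At P5 they summed to 42.8 to 45.9 against 29.9 to 38.9 RPKM, and 1 of 6 fell. The shares of all genes were 6.61% that rose and 3.07% that fell at E17, and 30.8% that fell at P5. The part of these cells in the Cox4i2 result was not tested.

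Other tissue isoforms of complex IV were also listed. Cox6a2, Cox7a1 and Cox8b are known from heart and skeletal muscle. At E17 Cox8b stood at 380, 279 and 295 RPKM in WT and at 243, 361 and 400 in DKO, close to its ubiquitous partner Cox8a (371, 326 and 319 against 360, 433 and 446). Cox7a1 stood at 126, 98.2 and 100.2 against 86.2, 123 and 136 RPKM, and Cox6a2 at 22.2, 8.15 and 18.7 against 9.19, 9.74 and 11.9. The groups of all 3 overlapped and none passed the test. The summed skeletal muscle markers at E17 were 1853, 744 and 1481 RPKM in WT and 799, 937 and 932 in DKO. Of these markers 8 of 15 fell, where 3.07% of all genes did. Cox6a2, Cox7a1 and Cox8b all followed the order of the summed markers in WT, with the lowest value in WT replicate 2. Among the DKO libraries all 3 genes and the sum were lowest in replicate 1. Of all libraries, Cox7a1 and Cox8b were highest in DKO replicate 3, and Cox6a2 and the sum in WT replicate 1.

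At P5 the muscle isoforms were near 0. Cox8b was listed at 0 in all 3 WT libraries and in DKO replicate 2, and at 0.21 and 0.80 RPKM in DKO replicates 1 and 3. Cox7a1 stood between 1.46 and 3.35 RPKM. The highest P5 value of Cox6a2, Cox7a1 and Cox8b was in DKO replicate 3, the library in which the muscle markers summed to 48.9 RPKM against 3.98 to 5.67 in the other 5. Cox6b2, an isoform known from testis, stood at 7.55, 8.09 and 8.77 against 9.96, 12.9 and 13.8 RPKM at E17, at 0.52 as deposited (limma adjusted p = 0.00513) and 0.26 scaled (0.11).

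Ndufa4 is now known as a subunit of complex IV, and Ndufa4l2, outside the rule for members, is a hypoxia-induced relative of it. Ndufa4 stood at 216 ± 12.3 RPKM in WT and 219 ± 5.75 in DKO at P5 (SD, n = 3), with overlap and a log2 fold change of 0.01 as deposited (limma adjusted p = 0.827) and 0.24 scaled (0.00515). Ndufa4l2 stood at 21.7, 11.95 and 17.4 against 6.21, 7.64 and 9.48 RPKM there and fell, with -1.02 as deposited (limma adjusted p = 0.000751) and -0.81 scaled (0.00637). At P0 it fell as well, from 51.5, 73.0 and 63.0 to 33.2, 21.6 and 31.03 RPKM, at -1.11 (limma adjusted p = 0.000125) and -1.09 scaled. At E17 it stood at 87.3, 67.2 and 78.2 against 94.3, 72.6 and 84.8 RPKM, and the groups overlapped.

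At P0, 1 of 14 nuclear members rose and 0 fell, where 16.7% of all 2062 genes were higher as deposited and 23.2% lower, and 16.7% rose and 22.8% fell in both scalings. The gene that rose was Atp5g1 (chr11:96068852-96075670, mm10), one of 3 genes for the same c subunit that forms the rotor ring of ATP synthase. It stood at 123, 135 and 125 RPKM in WT and at 168, 170.2 and 186 in DKO. The groups did not overlap, and the log2 fold change was 0.45 ± 0.07 as deposited (limma adjusted p = 0.000346) and 0.47 scaled (0.00145). The call held in each alternative but the demand that the log2 fold change be 1 or more in size.

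At the other stages Atp5g1 was not called in both scalings, though its groups did not overlap, with DKO above WT at E17 and below it at P5. At E17 it stood at 125, 101.3 and 108 against 132, 145 and 139 RPKM, at 0.32 as deposited (limma adjusted p = 0.0146) and 0.03 scaled (0.808). The P5 libraries held 149, 155 and 147 against 143, 132 and 145 RPKM, at -0.10 and 0.12. The genotype effect fell from P0 to P5, by 0.55 on the log2 scale as deposited (Satterthwaite adjusted p = 2.71e-05) and by 0.35 scaled (0.00534), as it did for 31.2% of 1758 genes, while 9.9% changed the other way. From E17 to P0 the difference was 0.13 as deposited (0.331) and 0.44 scaled (0.00285). The 3 mesenchyme markers listed at P0 summed to 554 to 681 RPKM in WT and 1795 to 2732 in DKO. Only 1 of the 3 rose and 2 fell, with a median log2 fold change of -1.09 as deposited and -1.07 scaled. Their part in the result was not tested. The other genes of the c subunit were not analysed at P0.

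The 13 other members at P0 overlapped between genotypes, and Ndufa12, an accessory subunit of complex I, stood at 140, 139 and 151 RPKM in WT and at 135, 156 and 140 in DKO, with a log2 fold change of 0.00. Limma placed 0 lower, also at an unadjusted p under 0.05. Uqcrq, a small subunit of complex III, stood at 269, 265 and 283 RPKM in WT and at 246, 332 and 241 in DKO. DKO replicate 2 was the highest DKO library for 13 of the 14 members, Atp5g1 being the exception, and without that library 3 members were lower.

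At P0 no mitochondrial gene was listed, so mitochondrial mRNA was read only through nuclear copies. At E17 the 3 copies named next could not be told apart from their mitochondrial genes. Whether reads were shared in the same way at P0 could not be checked. At P0 Gm28437, the copy of mt-Co3, stood at 5184, 3938 and 5254 RPKM in WT and at 4825, 5194 and 4324 in DKO. Gm28661, the copy of mt-Co2, stood at 5345, 4417 and 5549 against 5149, 5189 and 4470, and Gm10925, the copy of mt-Atp6, at 5781, 4236 and 5923 against 5328, 5716 and 4741. WT replicate 2 was the lowest library for all 3, and the groups overlapped. Their log2 fold changes were 0.00, -0.04 and -0.00 as deposited, with adjusted p from 0.785 to 0.991 in limma. In 15 settings each, none of the 3 passed the test, with log2 fold changes from -0.16 to 0.08. These values cannot be split into RNA of the mitochondrial genes and RNA of the copies.

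**Figure D3:**
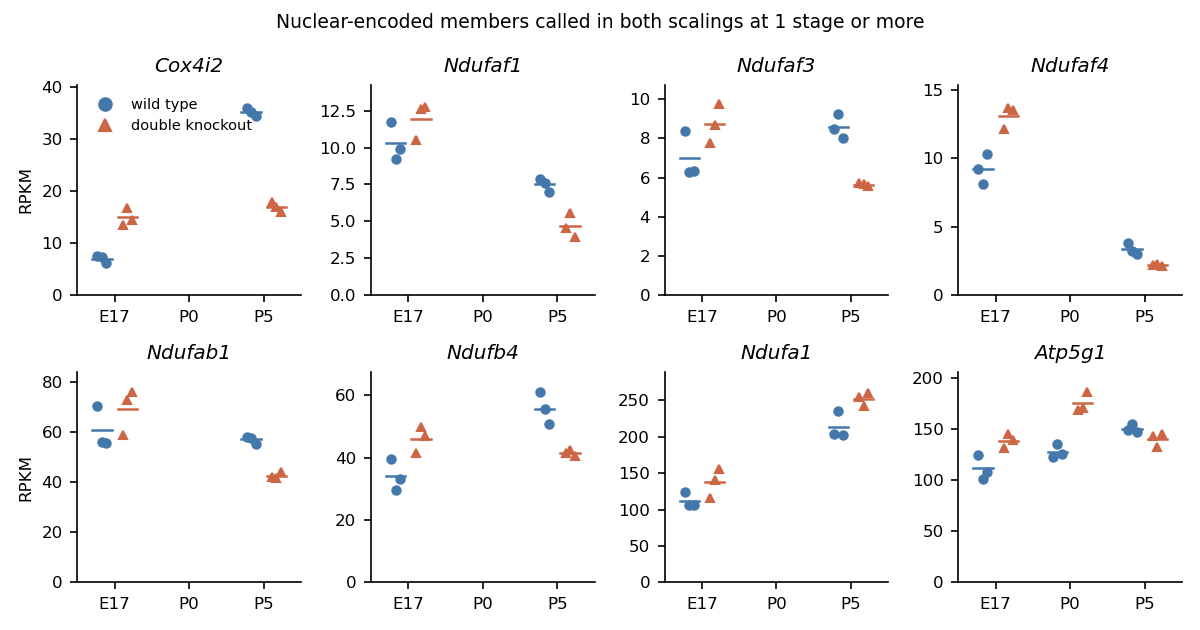
RPKM of the nuclear members that rose or fell at 1 stage or more, by stage, with circles for WT and triangles for DKO libraries and axes that start at 0. Cox4i2 is higher in DKO at E17 and lower at P5, and Atp5g1 is at 168 to 186 RPKM in DKO against 123 to 135 in WT at P0, with DKO also above WT at E17 and below it at P5.

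At P5 the nuclear members were lower as deposited and slightly above WT after scaling, while most assembly factors of complex I were lower as deposited. Of 89 tested, 1 was higher and 39 lower as deposited, against 7.36% and 58.2% of all 11423 genes. The count of 39 was 25 without DKO replicate 2. After upper-quartile scaling 20 were higher and 6 lower, against 19.4% and 30.8%. In both scalings 1 rose and 6 fell, against 7.35% and 30.8% of all genes. The members' median log2 fold change was -0.13 as deposited and 0.09 scaled, beside -0.25 and -0.06 for all genes. The direction of most single subunits turned with the scaling. Under median-of-ratios scaling 44 were higher and 5 lower. With libraries scaled to their summed RPKM 0 were higher and 85 lower. That sum covered every symbol listed at P5, where none had the mt- prefix, and so it included Amelx. The statements below are therefore made of genes that passed in both scalings, and the others are given by their values.

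The assembly factors of complex I help to build the enzyme and leave it before it is finished. Of the 8, 7 were lower as deposited and 3 fell, with a median of -0.35 as deposited and -0.18 scaled. Among all genes 58.2% were lower as deposited and 30.8% fell. Ndufaf1 (chr2:119655446-119662827), which acts on the membrane arm, stood at 7.89, 7.62 and 6.99 RPKM in WT and at 4.53, 5.56 and 3.95 in DKO, at -0.59 ± 0.10 (limma adjusted p = 0.000526) and -0.40 scaled (0.0102). Ndufaf3 (chr9:108565537-108567434) stood at 8.49, 9.22 and 8.02 against 5.72, 5.66 and 5.55 RPKM, at -0.53 ± 0.07 (limma adjusted p = 0.000124) and -0.33 scaled (0.00281). Ndufaf4 (chr4:24898083-24905001), whose promoter is shown above, stood at 3.84, 3.25 and 3.04 against 2.21, 2.31 and 2.14 RPKM, at -0.44 ± 0.09 (limma adjusted p = 0.00121) and -0.27 scaled (0.0113). In all 3 every DKO library lay below every WT library as deposited. Subunits that did not fall showed this too, such as Atp5b and Cox5a, and the share of all genes that did is not given here. Ndufaf6 and Ndufaf7 were lower without overlap too, at -0.36 and -0.35 as deposited, but missed the threshold after scaling (limma adjusted p = 0.0919 and 0.105). Ndufaf8 was the one factor that was not called in either scaling, at -0.17 and 0.04.

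Among 37 subunits of complex I, 1 rose and 2 fell, and 15 were lower as deposited. The shares of all genes were 7.35%, 30.8% and 58.2% in the same order. Ndufab1 (chr7:122085403-122101886) encodes the mitochondrial acyl carrier protein, which is a subunit of complex I and also serves mitochondrial fatty acid synthesis. It stood at 58.1, 57.6 and 55.1 RPKM in WT and at 42.1, 41.7 and 43.8 in DKO, without overlap, at -0.41 ± 0.05 (limma adjusted p = 0.000102) and -0.19 scaled (0.00491). Ndufb4 (chr16:37647170-37654453) stood at 61.0, 55.5 and 50.8 against 41.5, 42.6 and 40.6 RPKM, at -0.41 ± 0.07 (limma adjusted p = 0.000475) and -0.19 scaled (0.0136). Its call was lost under median-of-ratios scaling, at -0.13 (0.0656). Ndufb4c, a similarly named gene outside the rule that may share reads with it, stood at 53.9, 61.5 and 55.4 against 56.6, 51.1 and 61.3 RPKM, so the value of Ndufb4 is uncertain to the extent that counting split the 2.

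Ndufa1 (chrX:37187588-37191163), a small subunit needed to build the membrane arm, was the member that rose at P5. It stood at 203.6, 235 and 201.98 RPKM in WT (214 ± 19, SD, n = 3) and at 255, 242 and 260 in DKO (252 ± 9.1), without overlap, though WT replicate 2 came near DKO replicate 2. The log2 fold change was 0.24 ± 0.07 (limma adjusted p = 0.00846) and 0.47 scaled (0.000766). It was 0.06 (0.429) when libraries were scaled to their summed RPKM. Ndufb11, another X-linked subunit, stood at 162, 169 and 164 against 174, 175 and 177 RPKM, at 0.09 as deposited (limma adjusted p = 0.135) and 0.31 scaled (0.000922). Among the core subunits that hold the redox centres, Ndufs1 stood at 31.04, 30.4 and 29.8 against 24.9, 23.7 and 24.9 RPKM, at -0.30 as deposited (limma adjusted p = 0.000842) and -0.08 scaled (0.142).

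Complex II links the tricarboxylic acid cycle to the respiratory chain and has 4 subunits, all nuclear. At P5 the membrane anchors Sdhd and Sdhc and the flavoprotein Sdha were lower as deposited, at -0.32, -0.28 and -0.22, and stood at -0.10, -0.05 and -0.00 scaled. Sdhd had 51.1, 50.5 and 44.0 RPKM in WT and 38.6, 37.8 and 39.3 in DKO. The iron-sulfur subunit Sdhb had 119, 127 and 120 against 113, 123 and 123 RPKM, at -0.03 and 0.19. At E17 no Sdh gene was called in either scaling.

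In complex III, 3 of 8 subunits were lower as deposited, and 3 were higher after scaling, against 58.2% and 19.4% of all genes. The Rieske iron-sulfur protein Uqcrfs1 had 56.1, 59.2 and 56.9 RPKM in WT and 50.6, 47.3 and 52.7 in DKO, without overlap, at -0.19 (limma adjusted p = 0.0142) and 0.03 scaled (0.688). The core proteins Uqcrc1 and Uqcrc2 stood at -0.17 and -0.15 as deposited and 0.06 and 0.07 scaled. Of 15 tested members of complex IV, 4 were lower as deposited and Cox4i2 fell. Cox5a had 94.6, 92.8 and 91.7 against 82.0, 77.9 and 78.8 RPKM, without overlap, at -0.22 (limma adjusted p = 0.00294) and -0.00 scaled (0.988). In ATP synthase 7 of 17 were lower as deposited and 3 higher after scaling. Its catalytic subunit Atp5b had 473, 447 and 436 against 412, 401 and 399 RPKM, at -0.16 (limma adjusted p = 0.0201) and 0.06 scaled (0.216).

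**Figure D4:**
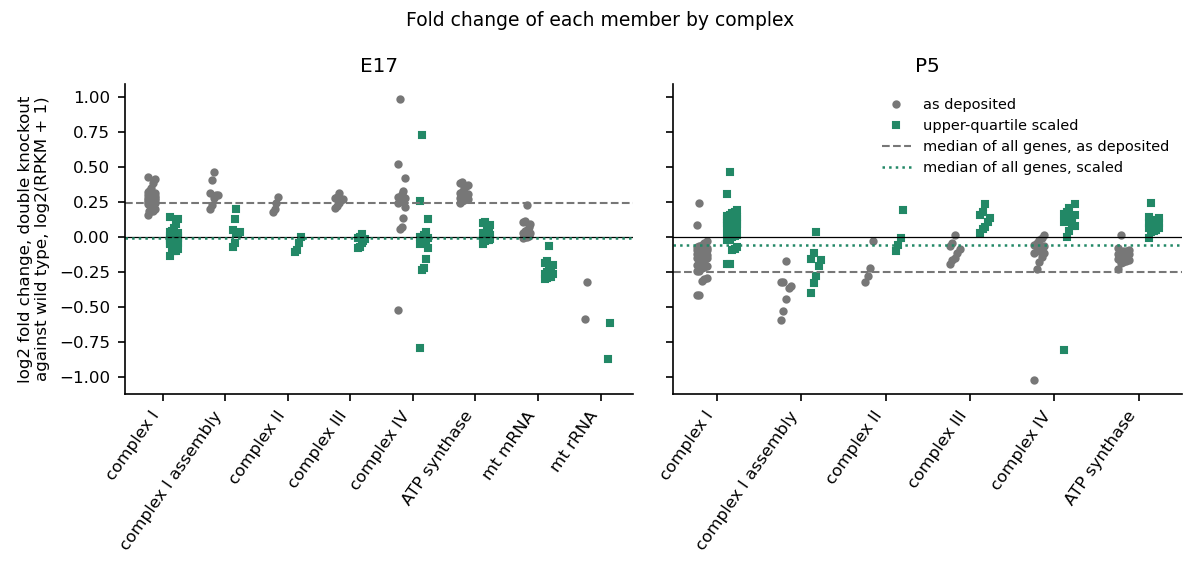
Log2 fold change, DKO against WT on the log2(RPKM + 1) scale, of each tested member by complex at E17 and P5, as deposited (circles) and after upper-quartile scaling (squares), with lines for the median of all genes. At P5 the medians of complexes I, III, IV and ATP synthase lie between -0.09 and -0.13 as deposited, above the line of all genes at -0.25. The median of complex II lies at that line, at -0.25, and that of the assembly factors lies below it at -0.35.

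The genotype effect changed between E17 and P5 for 4 of the 88 members tested at both stages, all toward lower, against 27.5% of 11049 genes. None changed toward higher, against 2.61%. As deposited 79 of the 88 differences were lower and 0 higher, and after scaling 4 were lower and 3 higher. At an unadjusted p under 0.05, 0 were higher as deposited and 9 after scaling. The 4 members whose effect changed in both scalings were Cox4i2, Ndufaf4, Ndufb4 and Ndufaf3. Each was summed over more transcripts at E17 than at P5, since the 2 tables differ in the transcripts listed.

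Ndufaf4 stood at 9.25, 8.09 and 10.3 RPKM in WT and at 12.1, 13.7 and 13.5 in DKO at E17, above WT without overlap, and below WT at P5. Its effect was 0.47 at E17 as deposited (0.20 scaled) and -0.44 at P5 (-0.27 scaled), a change of -0.91 (Satterthwaite adjusted p = 3.98e-06) and -0.48 scaled (0.00295). Ndufb4 stood at 39.6, 29.7 and 33.2 against 41.5, 49.9 and 47.0 RPKM at E17, and its effect changed by -0.84 (Satterthwaite adjusted p = 3.18e-05) and by -0.34 scaled (0.0238). Ndufaf3 stood at 8.38, 6.29 and 6.35 against 7.74, 8.66 and 9.74 RPKM at E17, with overlap, and its effect changed by -0.81 (Satterthwaite adjusted p = 6.44e-05) and by -0.36 scaled (0.0289). The changes of Ndufaf3 and Ndufb4 were lost in the scaled data under several alternatives. Both were lost under median-of-ratios scaling (Satterthwaite adjusted p = 0.0601 for Ndufaf3 and 0.0573 for Ndufb4) and with no filter (0.069 and 0.065), and that of Ndufb4 with the highest transcript alone (0.0671). They were also lost for Ndufaf3 without WT replicate 2 or 3 or DKO replicate 3 of E17, or without WT replicate 2 of P5, and for Ndufb4 without WT replicate 3 or DKO replicate 2 or 3 of E17, with adjusted p from 0.0544 to 0.0907. Those of Ndufaf4 and Cox4i2 held in all of these alternatives and without any other single library. The change of Ndufaf4 was under 1 in size in both scalings.

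Other mitochondrial genes were read from fixed lists. At P5, 31 of 78 genes of the mitochondrial ribosome, which translates the mitochondrial mRNAs, fell, beside 6 of 89 nuclear members and 30.8% of all genes. The list's median was -0.34 as deposited and -0.13 scaled. Mrps6 stood at 9.39, 11.1 and 11.6 RPKM in WT and at 4.79, 5.33 and 5.17 in DKO, at -0.94 and -0.74 scaled. At E17, 3 of the 78 rose, namely Mrpl22, Mrpl46 and Mrpl58, at 0.54, 0.50 and 0.52 as deposited and 0.26, 0.22 and 0.23 scaled, where 6.61% of all genes rose. At P0, 2 of 12 fell, Mrpl22 and Mrps9, at -0.19 and -0.21, where 22.8% of all genes fell.

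Genes that copy, express and maintain the mitochondrial genome fell at P5 in 9 of 19 cases, where 30.8% of all genes fell, with a median of -0.39 as deposited and -0.19 scaled. Tfb1m, the methyltransferase that modifies the small mitochondrial ribosomal RNA, stood at 2.66, 2.28 and 2.40 RPKM in WT and at 0.70, 1.25 and 1.01 in DKO, at -0.80 ± 0.11 (limma adjusted p = 0.000121) and -0.67 scaled. Polg, the catalytic subunit of the mitochondrial DNA polymerase, stood at 5.98, 5.14 and 5.39 against 3.59, 3.49 and 3.56 RPKM, at -0.52 and -0.33 scaled. Mgme1, a nuclease of mitochondrial DNA, stood at -0.63 and -0.52 scaled. At P0, 2 of 9 fell, where 22.8% of all genes did. Tfam, which packages the mitochondrial genome and starts its transcription, stood there at 25.7, 20.5 and 26.0 RPKM in WT and at 17.9, 19.5 and 18.6 in DKO, at -0.34 ± 0.09 (limma adjusted p = 0.0112) and -0.32 scaled. Its call was lost without WT replicate 1 (0.0548), with no filter (0.0843) and with the highest transcript alone (0.053). Tbrg4, a factor of mitochondrial RNA processing, fell at P0 by 0.21. At E17 none of the 19 was called in both scalings.

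Assembly factors outside the rule were read at P5 as well. Of 27 for complexes II to V, 11 fell, where 30.8% of all genes did, with a median of -0.35 and -0.17 scaled. Cox17, the copper chaperone of complex IV, stood at 47.4, 54.4 and 52.1 RPKM in WT and at 29.8, 30.8 and 28.8 in DKO, at -0.76 ± 0.06 (limma adjusted p = 1.15e-05) and -0.54 scaled. Coa6, another factor of copper delivery, stood at 10.6, 10.6 and 8.74 against 4.76, 4.28 and 5.29 RPKM, at -0.93 and -0.73 scaled, and Coa3 fell by 0.70 and by 0.48 scaled. Of 7 further factors of complex I, 3 fell. Timmdc1 stood at 10.1, 9.38 and 9.66 against 5.28, 5.18 and 5.32 RPKM, at -0.78 and -0.58 scaled, and Acad9 and Nubpl both at -0.44 as deposited. At P0 Ttc19, a factor of complex III, rose by 0.31 and 0.33 scaled, as 1 of 11 listed, where 16.7% of all genes rose.

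The lists of metabolism and import are read against the 30.8% of all genes that fell at P5, and their shares were near it. Of 11 genes of electron carriers 4 fell, among them Coq3 and Coq5 of ubiquinone synthesis, at -0.72 and -0.61. Of 15 genes of the tricarboxylic acid cycle 4 fell, among them Fh1, fumarate hydratase, from 48.3, 47.3 and 48.5 to 33.3, 31.2 and 34.3 RPKM, at -0.53 and -0.31 scaled, with Suclg1 and Ogdh at -0.44 and -0.43. Of 15 genes of import, chaperones and carriers 4 fell. Hspd1, the mitochondrial chaperonin, stood at 47.0, 44.3 and 44.5 RPKM in WT and at 26.7, 26.2 and 27.3 in DKO, at -0.74 ± 0.05 (limma adjusted p = 6.41e-06) and -0.52 scaled. The outer membrane channel Vdac3 stood at -0.58 and -0.36 scaled, and Phb at -0.40 and -0.18. At P0 Vdac1 and Hspe1 fell, by 0.25 and 0.24 as deposited, as 2 of 5, where 22.8% of all genes fell.

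Of 9 tested regulators of mitochondrial biogenesis 2 fell at P5, where 30.8% of all genes did. Esrra, a nuclear receptor, stood at 18.9, 18.8 and 17.1 RPKM in WT and at 12.6, 11.9 and 13.01 in DKO, at -0.51 and -0.30 scaled. Yy1 stood at 14.1, 14.8 and 13.4 against 10.3, 9.47 and 9.28 RPKM, at -0.50 and -0.29 scaled. The shares of these lists were not tested against one another.

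**Figure D5:**
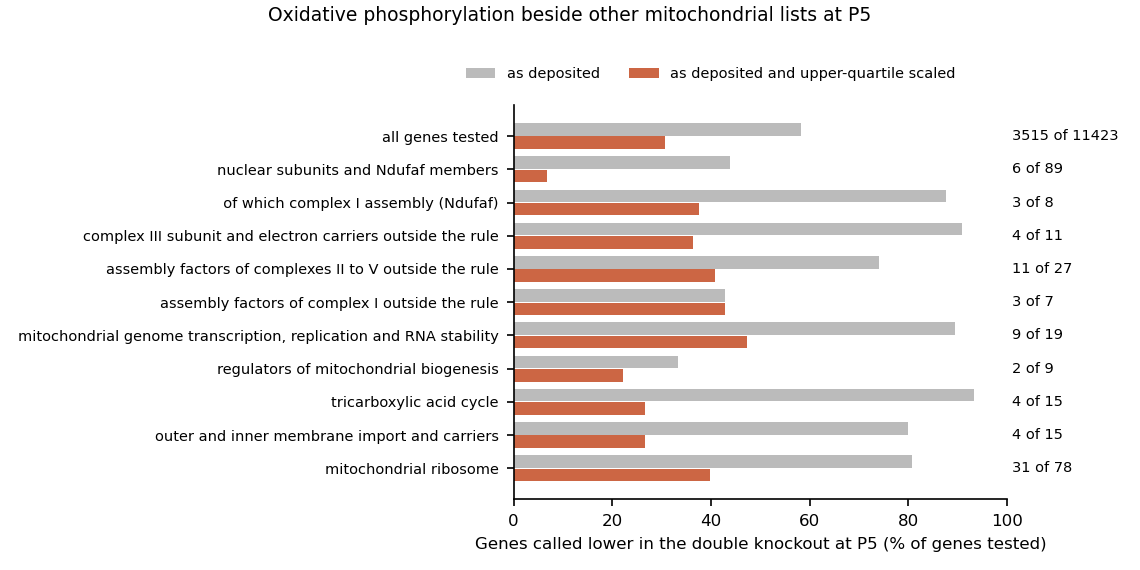
Share of tested genes called lower in DKO at P5, in percent, as deposited (grey) and in both scalings (colour). Bars are for all genes, the nuclear members, the complex I assembly factors among them and the other mitochondrial lists. The nuclear members fell in 6 of 89 cases and the mitochondrial ribosome in 31 of 78, where 30.8% of all genes fell.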

How the data were processed

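RNA of dental epithelium was measured in 18 libraries, 3 for each genotype at each of 3 stages. The authors deposited RPKM per transcript, per the file headers and the values, and the processing notes of the submitters name Partek and mm10. Aligner, annotation and strand setting: not given in the sources used here. Of low values of single-transcript genes, 87.3% to 88.2% at E17 were whole multiples of 1 read within 0.1. The alignment numbers that the authors deposited as a count per library ranged over 65953495 to 99967427 (E17), 74845352 to 108920337 (P0) and 39209676 to 72660832 (P5).

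RPKM were summed per symbol. Groups were taken from the genotype and stage labels. Within a stage, genes that reached 1 RPKM in 3 or more of 6 libraries were tested on log2(RPKM + 1), so a fold change understates that of low genes. The test was limma 3.58.1 in R 4.3.3, with a mean-variance trend and Benjamini-Hochberg adjustment over all genes, stage by stage, as deposited and scaled to a common upper quartile. Genotype effects at 2 stages were compared with a Satterthwaite approximation to the degrees of freedom. The script was tested on simulated data. Alternatives were the filter, the pseudocount (0.1), the trend, a replicate block, an absolute log2 fold change of 1, the highest transcript, 2 other scalings and leaving out each library. The rule of passing in both scalings, and the reading of nuclear copies and abundant RNAs, were chosen after seeing the data. The genes named are each mitochondrial mRNA and ribosomal RNA, up to 4 members of each complex and stage with the smallest p, the isoform pairs of complex IV, the members with the largest and smallest fold change, Sdha to Sdhd and up to 3 genes of each pathway list with the smallest p. Members called in both scalings or with a stage difference in both are named besides, and Ndufa12, Ndufaf8, Ndufb11 and mt-Ts1 were named after their values were seen. The members and lists were chosen with earlier results of these data known. Positions are from GENCODE M21 (mm10).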

Additional observations from a re-analysis of the deposited data

Results flagged for a closer look

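The effect of the double knockout on 5 members differed between 2 stages in a test of the difference itself, as deposited and scaled. From E17 to P5 the log2 effect changed by -2.01 for Cox4i2, -0.91 for Ndufaf4, -0.84 for Ndufb4 and -0.81 for Ndufaf3. Scaled, these changes were -1.53, -0.48, -0.34 and -0.36. Those of Ndufb4 and Ndufaf3 did not pass the test under median-of-ratios scaling or with no filter on low values. From P0 to P5 the effect changed by -0.55 for Atp5g1, and by -0.35 scaled. The E17 and P5 tables were normalized separately, and over all genes the median effect moved from 0.25 to -0.25 as deposited. They also differ in the transcripts listed per symbol. Cox4i2 was summed over 2 transcripts at E17 and 1 at P5, Ndufaf3 over 4 and 1, and Ndufaf4 and Ndufb4 over 3 and 1. Atp5g1 was summed over 4 at P0 and 2 at P5.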

How the results depend on the processing

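Among nuclear members higher at E17 as deposited (40), the count was 8 with no filter, 16 with the replicate block, 0 at an absolute log2 change of 1 or more, 1 under upper-quartile and 1 under median-of-ratios scaling, 3 when scaled to RNA outside the mitochondrial genome, and 8 to 87 without single libraries. In both scalings (1) it was 2 with the replicate block, 0 at a change of 1 or more and 1 to 2 without single libraries. Lower nuclear members at E17 (0) were 0 to 1 without single libraries. Lower mitochondrial members (2) were 1 with no filter, 1 with the block, 0 at a change of 1 or more, 5 under upper-quartile and 5 under median-of-ratios scaling, and 1 to 2 without single libraries; in both scalings the first 3 gave 0, 1 and 0, and single libraries again 1 to 2. Higher mitochondrial members (0) were 0 to 2 without single libraries. At P0 the 1 higher member was 0 at a change of 1 or more, and lower members (0) were 0 to 3 without single libraries. At P5 higher members (1) were 0 at a change of 1 or more, 20 under upper-quartile, 44 under median-of-ratios and 0 under summed-RPKM scaling. Lower members (39) were 1, 6, 5 and 85 in the same order, and 25 (without DKO replicate 2) to 38 without single libraries. In both scalings a change of 1 or more left 0 in each direction. Differences from E17 to P5 toward higher were 11 with median-of-ratios scaling, and those toward lower (4) were 2 with it, 2 with no filter and 2 to 6 without single libraries. The cause of these changes was not tested.

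Reversed log2 values at E17 under upper-quartile and median-of-ratios scaling were -0.0084 and -0.0058 for Cox8a and -0.2835 and -0.2809 for mt-Nd4l. That of mt-Nd4l was -0.1995 under non-mitochondrial scaling, and that of Uqcrh was -0.0001 under upper-quartile scaling. At P5 the same pair of scalings gave 0.0635 and 0.1278 for Atp5b, 0.0449 and 0.1091 for Atp5h, 0.0358 and 0.0997 for Atp5mpl, 0.161 and 0.2254 for Cox4i1, 0.1687 and 0.233 for Cox6a1, 0.1796 and 0.2435 for Cox7a2, 0.0794 and 0.1435 for Cox7a2l, and 0.047 and 0.1112 for Cox7c. They gave 0.1934 and 0.2573 for Sdhb, 0.0578 and 0.1217 for Uqcrc1, 0.0724 and 0.1359 for Uqcrc2, and 0.0296 and 0.0929 for Uqcrfs1. Median-of-ratios scaling alone gave 0.1877 for Atp5g1, 0.0572 for Atp5pb, 0.0628 for Cox5a, 0.1743 for Cox6b1, 0.1944 for Cox8a, 0.2673 for Ndufb4c, 0.0614 for Sdha, 0.0105 for Sdhc and 0.1755 for Uqcrh. Scaling to summed RPKM gave -0.1667 for Ndufa4.

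Same-numbered replicates did not deviate together, with correlations from -0.22 to 0.269, so the block pairs numbers only. With the replicate block 6 members fell at P5 and 5 differences from E17 to P5 were lower.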
